A study of Homo sapiens with 16 samples.

Results

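Dual-specificity phosphatases (DUSPs) of MAP kinases were followed at the RNA level in U2OS cells, a human bone tumour line, with and without ultraviolet C light (UV) and with and without knockdown of the lipid kinases PIP4K2A and PIP4K2B. The set held 10 genes of the 60666 in each table, chosen by symbol as known MAP kinase phosphatases and matched to the Ensembl identifiers in the files: DUSP1, DUSP2, DUSP4, DUSP5, DUSP6, DUSP7, DUSP8, DUSP10, DUSP14 and DUSP16. Of the 10 genes, 8 were expressed well enough for comparison, while DUSP4 and DUSP6 lay close to 0.

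The labels gave 8 groups of 2 libraries, 16 libraries in all, from 4 lines of U2OS cells that each carried a stable vector selected with puromycin. The lines carried a short hairpin RNA against PIP4K2A (shPIP4K2A), a hairpin against PIP4K2B (shPIP4K2B), hairpins against both (shPIP4K2A/2B) or the empty vector plko.puro, and the labels list no hairpin without a target. PIP4K2A and PIP4K2B encode type II kinases that phosphorylate the signalling lipid phosphatidylinositol 5-phosphate. Each line was either collected 6 h after UV-C of 30 J/m2 or left untreated. Nothing in the labels tells if both libraries of a group are separate cultures; p-values therefore reflect the spread between these libraries alone, which may be technical.

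MAP kinases are switched on by phosphorylation of a threonine and a tyrosine in their activation loop, and DUSPs of this family remove both phosphates. They are commonly sorted by place and target: inducible nuclear enzymes (DUSP1, DUSP2, DUSP4, DUSP5), cytoplasmic enzymes that prefer ERK (DUSP6, DUSP7), and enzymes that prefer JNK and p38 (DUSP8, DUSP10, DUSP16), with DUSP14 a small atypical member that lacks the MAP kinase binding domain. Several are transcribed in response to the same MAP kinases that they switch off, and UV is a classical activator of JNK and p38.

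The library labelled plko.puro untreated replicate 1 was set aside, so that untreated plko.puro cells were represented by 1 library, which was assumed to vary like the other groups. That library held 1.28 M expected counts, against 28.0 to 39.9 M in the other 15, and mitochondrial transcripts made up 14.6% of it, against 2.20 to 3.43%. PIP4K2A stood at 15.7 CPM (counts scaled to the library total) in it, close to the 15.5 to 22.9 CPM of the untreated lines with a PIP4K2A hairpin and below the 62.9 CPM of the other untreated plko.puro library. PIP4K2C, which no hairpin targets, was also low in it (18.8 CPM, with 56.5 to 113 CPM elsewhere), and so was GAPDH (771 CPM, with 4790 to 8545 CPM elsewhere), while PIP4K2B stood at 91.5 CPM. In the remaining libraries PIP4K2A was at 7.48 to 22.9 CPM with its hairpin and 43.2 to 62.9 CPM without, and PIP4K2B at 11.4 to 26.6 CPM with its hairpin and 65.1 to 107 CPM without. Summed osteoblast and mesenchymal markers lay at 5200 to 7020 CPM after UV and 4340 to 7190 CPM untreated, with IBSP near 0; epithelial markers summed to 325 to 934 CPM after UV and 270 to 496 CPM untreated, with KRT19, CLDN7 and ESRP1 under 0.5 CPM; 6 of 8 blood cell markers stayed under 0.5 CPM. The part of these markers in the results below was not tested. With the library labelled plko.puro untreated replicate 1 in the fit, the only calls among the members were in the UV response of plko.puro cells, where DUSP1 (1.47) and DUSP2 (2.06) were higher and DUSP4 and DUSP6 lower on the log2 scale.

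Levels of 1 gene across libraries are given as normalised CPM, which carry the same composition factor per library as the fold changes. A gene was said to rise or fall where the Benjamini-Hochberg adjusted p of edgeR's quasi-likelihood test over all 22597 genes tested was under 0.05, and an error after ± is a standard error (SE) for a fold change and a standard deviation (SD) for a level. Where levels are said not to overlap, the share of all genes with such a gap was not computed. With 2 libraries in a group, and 1 for untreated plko.puro, a gap is easily reached. Fewer cells that express a gene and less RNA per cell cannot be told apart in these bulk samples.

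Between genes, levels were compared within a library as TPM, the authors' measure that allows for transcript length. In untreated plko.puro cells DUSP14 was the most abundant member at 26.4 TPM, followed by DUSP7 at 15.3 TPM, DUSP1 at 12.03 TPM, DUSP16 at 7.37 TPM and DUSP8 at 6.07 TPM. DUSP10, DUSP5 and DUSP2 followed at 4.67, 3.66 and 2.77 TPM, and DUSP6 and DUSP4 came last at 0.18 and 0.01 TPM. With 1 library in that group, no spread stands behind this order. In plko.puro cells after UV the order began with DUSP1 at 13.9 and 14.8 TPM, ahead of DUSP14 at 12.7 and 12.8 TPM. There DUSP7 (5.08 and 6.22 TPM) and DUSP2 (4.79 and 4.91 TPM) followed, then DUSP8 (3.76 and 4.56 TPM). The lowest of the expressed members after UV were DUSP16 (1.77 and 2.14 TPM), DUSP5 (1.69 and 1.74 TPM) and DUSP10 (1.40 and 1.16 TPM). There the lower DUSP16 library lay just above the higher DUSP5 one, closer than the 2 DUSP16 libraries were to each other. DUSP1 and DUSP2 thus stood higher in the order after UV than before it, and DUSP14, DUSP7, DUSP16 and DUSP10 lower.

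Promoter sequences are shown for the 2 members that rose after UV, DUSP1 and DUSP2, and for DUSP8 and DUSP16 as members that did not, because the windows differ in cyclic AMP response elements. Each is the 250 bases before the gene start on the minus strand, from RefSeq on GRCh38.p14, at chr5:172771196-172771445 for DUSP1, chr2:96145441-96145690 for DUSP2, chr11:1572272-1572521 for DUSP8 and chr12:12562864-12563113 for DUSP16. Capitals mark matches on either strand to the element TGACGTCA, to its core TGACG, which lies inside the full element, and to the TATA motif TATAAA.
DUSP1: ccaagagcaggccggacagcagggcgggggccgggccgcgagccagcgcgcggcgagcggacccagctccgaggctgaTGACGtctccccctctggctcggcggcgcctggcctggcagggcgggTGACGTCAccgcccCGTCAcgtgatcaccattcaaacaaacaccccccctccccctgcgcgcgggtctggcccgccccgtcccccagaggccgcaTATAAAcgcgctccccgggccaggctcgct
DUSP2: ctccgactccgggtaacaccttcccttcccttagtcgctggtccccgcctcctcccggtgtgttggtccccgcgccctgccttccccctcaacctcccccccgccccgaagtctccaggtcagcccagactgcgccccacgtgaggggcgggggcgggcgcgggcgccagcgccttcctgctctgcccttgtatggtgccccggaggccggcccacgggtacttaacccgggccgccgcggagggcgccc
DUSP8: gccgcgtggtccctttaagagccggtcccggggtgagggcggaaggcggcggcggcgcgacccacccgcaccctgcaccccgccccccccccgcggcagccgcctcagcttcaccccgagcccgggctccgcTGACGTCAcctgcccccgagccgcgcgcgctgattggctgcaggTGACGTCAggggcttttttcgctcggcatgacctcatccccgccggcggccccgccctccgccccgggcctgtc
DUSP16: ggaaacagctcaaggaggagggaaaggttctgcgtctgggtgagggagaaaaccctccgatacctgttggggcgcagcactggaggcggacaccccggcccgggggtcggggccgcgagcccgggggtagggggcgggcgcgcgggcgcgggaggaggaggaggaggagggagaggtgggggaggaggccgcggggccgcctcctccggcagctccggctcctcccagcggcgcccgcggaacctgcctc
Counted from the gene start, the DUSP1 window held 1 full element at -125, further cores at -172 and -111, and a TATA motif at -30. The DUSP8 window held 2 full elements, at -118 and -74, and no TATA motif. Neither DUSP2 nor DUSP16 held any of these letters. In all, 8 members had 9 windows in the RefSeq table, of 250 bases before and 50 after the start, and of the others, DUSP6, DUSP7, DUSP14 and the first DUSP10 window held none of the motifs, while the second DUSP10 window held 1 core. Among all 35116 windows, 1.85% held the full element, 24.6% the core and 11.5% TATAAA. No member window held the AP-1 motif TGANTCA or the CArG box, which 7.71% and 1.29% of all windows held.

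UV moved the expressed members in opposite directions, and the split was much the same in the 4 lines. DUSP1 and DUSP2 stood higher after UV, although scaling to ribosomal protein genes put both lower in shPIP4K2A and shPIP4K2B cells and DUSP1 lower in shPIP4K2A/2B cells, as given below. DUSP5, DUSP7, DUSP8, DUSP10, DUSP14 and DUSP16 stood lower after UV under every scaling tried, past the test in each line for DUSP7, DUSP10 and DUSP16. Of the 10 members 2 rose and 6 fell in shPIP4K2A cells, where 16.5% of all genes rose and 14% fell. In shPIP4K2B cells 1 rose and 4 fell, against 17.5% and 15.5% of all genes, and in shPIP4K2A/2B cells 2 rose and 4 fell, against 19% and 16.3%. In plko.puro cells 2 rose and 3 fell, against 8.86% and 9.97% of all genes. The median log2 fold change of the members was -0.62, -0.39, -0.34 and -0.58 in these lines in the same order, and that of all genes 0.01, 0.00, 0.02 and 0.02. The members' medians include the scarce DUSP4 and DUSP6, at -0.91 ± 1.88 and -1.04 ± 0.74 in plko.puro cells. All 10 members passed the filter on low counts, which a gene could pass through a single library.

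**Figure D1:**
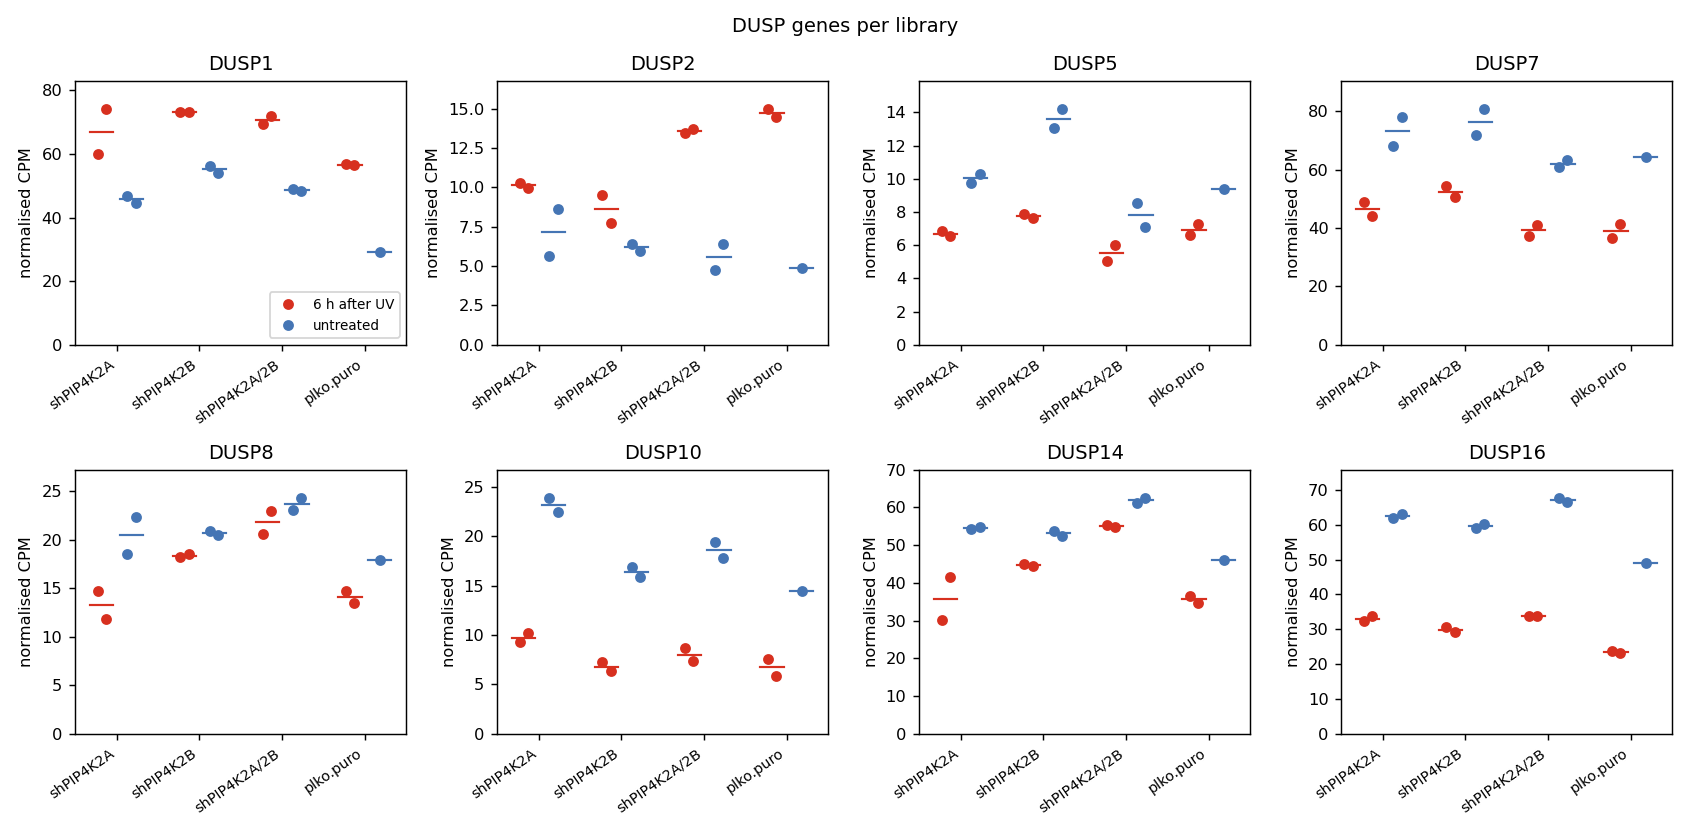
Normalised CPM of the 8 expressed DUSP genes in each library, by line, with red points 6 h after UV to the left of blue untreated points, short lines at group means and 1 library for untreated plko.puro. With this scaling DUSP1 and DUSP2 sit higher after UV than untreated in each line, and the other genes shown lower, with no overlap. Scaling to ribosomal protein genes puts DUSP1 lower after UV in the 3 knockdown lines and DUSP2 lower in the 2 single ones.

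DUSP1 (ENSG00000120129; GRCh38 chromosome 5, 172768090 to 172771195, minus strand) encodes a nuclear phosphatase of JNK, p38 and ERK and is a textbook stress-induced gene. It had 59.9 and 74.1 normalised CPM in shPIP4K2A cells after UV, against 46.9 and 44.7 untreated. In shPIP4K2B cells it had 73.2 and 73.3 after UV, against 56.3 and 54.0 untreated, and in shPIP4K2A/2B cells 69.4 and 72.0 after UV, against 48.9 and 48.3 untreated. In plko.puro cells it had 56.7 and 56.5 after UV, against 29.1 in the 1 untreated library. The lowest level after UV, 56.5 in plko.puro cells, was just above the highest untreated level, 56.3 in shPIP4K2B cells. The log2 fold changes were 0.55 ± 0.10, 0.41 ± 0.10, 0.54 ± 0.10 and 0.96 ± 0.13, with adjusted p of 0.00086, 0.00506, 0.000722 and 0.000152, for shPIP4K2A, shPIP4K2B, shPIP4K2A/2B and plko.puro. The call in shPIP4K2B cells was lost without the untreated replicate 2 of that line, at 0.37, and the call in shPIP4K2A cells in a fit of the groups compared alone, at 0.52 (adjusted p = 0.0973).

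DUSP2 (ENSG00000158050; chromosome 2, 96143166 to 96145440, minus strand), a nuclear ERK and p38 phosphatase best known from activated lymphocytes, had a larger range. In plko.puro cells it had 14.9 and 14.5 normalised CPM after UV, against 4.91 untreated, a log2 fold change of 1.58 ± 0.24 with an adjusted p of 0.000531. In shPIP4K2A/2B cells it had 13.4 and 13.7 after UV, against 4.77 and 6.41 untreated, a log2 fold change of 1.28 ± 0.19 with an adjusted p of 0.000148. The single knockdowns reached lower levels after UV than either of these lines. DUSP2 had 10.3 and 9.97 in shPIP4K2A cells after UV, against 5.62 and 8.64 untreated, with a log2 fold change of 0.51 ± 0.18 and an adjusted p of 0.0485. It had 9.49 and 7.73 in shPIP4K2B cells after UV, against 6.401 and 5.973 untreated, where the log2 fold change of 0.48 ± 0.19 did not pass the test (adjusted p = 0.065). The groups did not overlap in any line on the scale of normalised CPM. The shPIP4K2A call was marginal: it was lost when any of 12 libraries was left out, among them all of the shPIP4K2A libraries but the second untreated one, at log2 fold changes of 0.23 to 0.53, and 0.23 was the value without shPIP4K2A untreated replicate 1.

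Of the other 2 nuclear enzymes, DUSP5 behaved differently and DUSP4 was too scarce to compare. DUSP5 (ENSG00000138166; chromosome 10, 110497838 to 110511544, plus strand), which is specific for ERK, had 6.87 and 6.53 normalised CPM in shPIP4K2A cells after UV, against 9.77 and 10.3 untreated. In shPIP4K2B cells it had 7.87 and 7.66 after UV, against 13.1 and 14.2 untreated, and in shPIP4K2A/2B cells 5.03 and 6.01 after UV, against 8.57 and 7.09 untreated. DUSP5 was lower after UV in each line without overlap, also in plko.puro cells with 6.62 and 7.26 after UV, against 9.37 untreated. Its log2 fold changes were -0.58 ± 0.13, -0.81 ± 0.13 and -0.51 ± 0.14 in the 3 knockdown lines (adjusted p = 0.00456, 0.000373 and 0.0107). In plko.puro cells it was -0.43 ± 0.16, not past the test (adjusted p = 0.0744). The shPIP4K2A/2B call was lost without replicate 1 of that line, untreated (-0.35) or after UV (-0.38). In a fit of the groups compared alone the shPIP4K2A call was lost, at -0.61 (adjusted p = 0.081). The plko.puro fall was called with library totals (-0.69), with the groups compared alone (-0.47) and with ribosomal protein gene scaling (-1.16). DUSP4 (ENSG00000120875), a nuclear ERK and JNK phosphatase, had 0 to 7 counts per library after UV and 1 to 9 untreated, too few to compare.

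The cytoplasmic ERK phosphatases DUSP7 and DUSP6 differed above all in level. DUSP7 (ENSG00000164086; chromosome 3, 52048919 to 52056550, minus strand) fell after UV in each line. It had 48.8 and 44.1 normalised CPM in shPIP4K2A cells after UV, against 68.2 and 78.0 untreated, and 54.5 and 50.5 in shPIP4K2B cells after UV, against 71.9 and 80.7 untreated. In shPIP4K2A/2B cells it had 37.4 and 40.9 after UV, against 60.8 and 63.2 untreated, and in plko.puro cells 36.5 and 41.5 after UV, against 64.4 untreated. All 8 levels after UV lay below all 7 untreated ones, a gap for which the share of all genes was not computed. The log2 fold changes were -0.66 ± 0.11, -0.54 ± 0.10, -0.66 ± 0.11 and -0.72 ± 0.13 in these lines (adjusted p = 0.000429, 0.00142, 0.000317 and 0.00138). DUSP6 (ENSG00000139318; chromosome 12, 89347232 to 89353271, minus strand), the best known ERK feedback phosphatase, had 3 to 9.69 expected counts per library after UV and 7 to 18 untreated. Such counts give 0.0956 to 0.315 normalised CPM after UV and 0.224 to 0.491 untreated, and no DUSP6 comparison passed the test. Its fall after UV in shPIP4K2B cells was called with library totals, with the groups compared alone and with ribosomal protein gene scaling (adjusted p = 0.0434, 0.0489 and 0.00593), and that in shPIP4K2A/2B cells with ribosomal protein gene scaling (adjusted p = 0.0102).

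Among the JNK and p38 phosphatases, DUSP10 and DUSP16 showed the largest falls of the set. DUSP10 (ENSG00000143507; chromosome 1, 221701424 to 221742176, minus strand) had 9.32 and 10.2 normalised CPM in shPIP4K2A cells after UV, against 23.9 and 22.5 untreated. In shPIP4K2B cells it had 7.30 and 6.30 after UV, against 16.9 and 15.9 untreated, and in shPIP4K2A/2B cells 8.67 and 7.33 after UV, against 19.4 and 17.8 untreated. In plko.puro cells it had 7.61 and 5.88 after UV, against 14.4 untreated. All DUSP10 levels after UV were below all untreated ones, with log2 fold changes of -1.25 ± 0.14, -1.27 ± 0.14, -1.22 ± 0.14 and -1.09 ± 0.16 (adjusted p = 2.16e-05, 2.33e-05, 2.22e-05 and 0.000498).

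DUSP16 (ENSG00000111266; chromosome 12, 12474210 to 12562383, minus strand), which prefers JNK, had 32.3 and 33.7 normalised CPM in shPIP4K2A cells after UV, against 61.9 and 63.2 untreated, and 30.6 and 29.2 in shPIP4K2B cells after UV, against 59.1 and 60.2 untreated. In shPIP4K2A/2B cells it had 33.7 and 33.8 after UV, against 67.7 and 66.5 untreated, and in plko.puro cells 23.7 and 23.1 after UV, against 49.0 untreated. These groups were far apart in each line. Its log2 fold changes were -0.92 ± 0.08, -0.997 ± 0.08, -0.99 ± 0.08 and -1.07 ± 0.10 (adjusted p = 3.44e-06, 1.82e-06, 1.35e-06 and 7.18e-06).

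DUSP8, also a JNK and p38 phosphatase, and DUSP14, the atypical member, moved less and much alike. DUSP8 (ENSG00000184545; chromosome 11, 1554044 to 1571920, minus strand) had 14.8 and 11.8 normalised CPM in shPIP4K2A cells after UV, against 18.6 and 22.4 untreated, and fell by 0.62 ± 0.13 on the log2 scale (adjusted p = 0.00235). Its log2 fold changes did not pass the test in shPIP4K2B (-0.17 ± 0.13), shPIP4K2A/2B (-0.12 ± 0.13) and plko.puro cells (-0.34 ± 0.15). Fitted to the groups compared alone, the shPIP4K2A call was lost (adjusted p = 0.0754), and the fall in plko.puro cells was called (adjusted p = 0.0147). With library totals the falls in shPIP4K2B and plko.puro cells were called (adjusted p = 0.00795 and 0.01135). DUSP8 has processed pseudogene copies, and DUSP5 too, so reads could have been split between gene and copy.

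DUSP14 (ENSG00000276023; chromosome 17, 37489831 to 37513501, plus strand) had 30.1 and 41.5 normalised CPM in shPIP4K2A cells after UV, against 54.2 and 54.9 untreated, and fell by 0.61 ± 0.12 (adjusted p = 0.0016). The 2 shPIP4K2A libraries after UV were further apart for DUSP14 than any other pair. In shPIP4K2B, shPIP4K2A/2B and plko.puro cells its log2 fold changes of -0.25 ± 0.12, -0.17 ± 0.12 and -0.37 ± 0.14 did not pass the test. Fitted to the groups compared alone, these falls were called (adjusted p = 0.00391, 0.00297 and 0.00144), and that in shPIP4K2A cells was not (adjusted p = 0.0715). With library totals the DUSP14 fall was called in each line. DUSP14 levels in shPIP4K2A/2B cells were 55.4 and 54.7 after UV, against 61.3 and 62.5 untreated, a small gap without overlap.

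**Figure D2:**
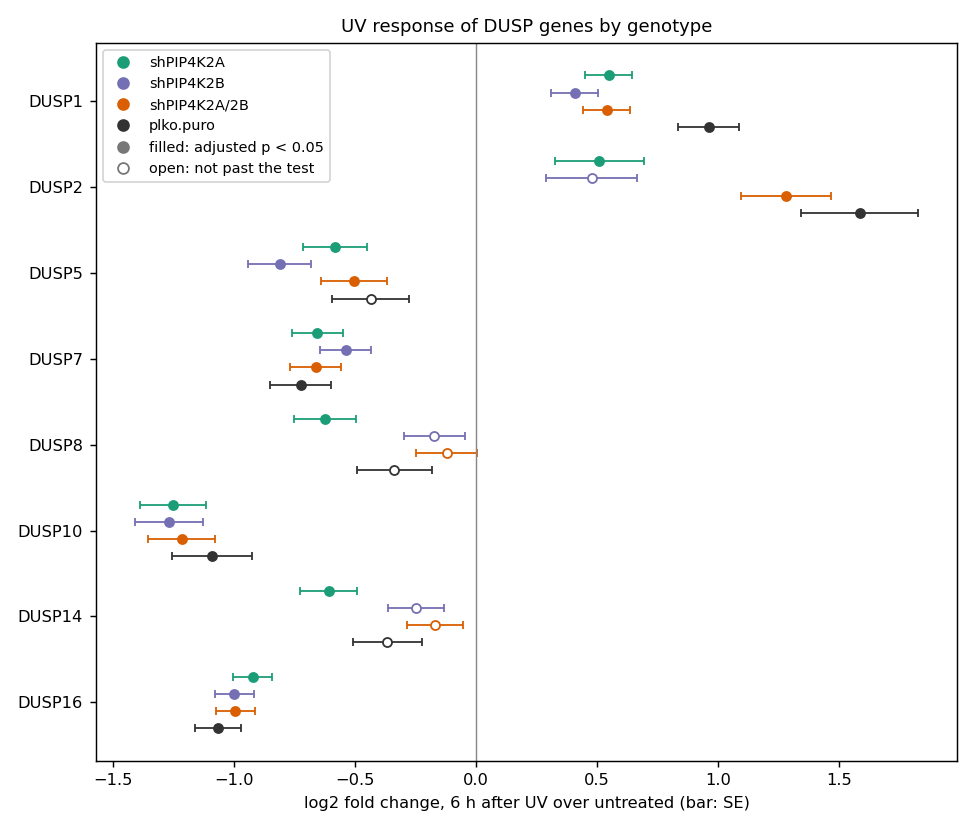
Log2 fold change 6 h after UV over untreated for the 8 expressed DUSP genes in each line, with bars for the SE and filled points for adjusted p under 0.05. DUSP1 and DUSP2 lie right of 0 and the other 6 genes left of it; with scaling to ribosomal protein genes DUSP1 moves left of 0 in the 3 knockdown lines and DUSP2 in the 2 single ones.

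The size of these changes depended on how the libraries were scaled. With RLE size factors in place of TMM the values barely moved, although DUSP2 in shPIP4K2A cells no longer passed the test (adjusted p = 0.0505). With plain library totals the median of all genes moved to -0.24, -0.30, -0.30 and -0.23 in shPIP4K2A, shPIP4K2B, shPIP4K2A/2B and plko.puro cells, and DUSP1 had log2 fold changes of 0.30, 0.10, 0.21 and 0.71 in the same order, which did not pass the test in shPIP4K2B and shPIP4K2A/2B cells (adjusted p = 0.457 and 0.116). With scaling to 82 ribosomal protein genes the median of all genes moved to -0.792, -0.895, -0.84 and -0.695. DUSP1 then had log2 fold changes of -0.25, -0.49, -0.33 and 0.24, and DUSP2 of -0.29, -0.42, 0.42 and 0.86. No DUSP1 rise passed the test on that scale (adjusted p = 0.322 in plko.puro cells), and its fall in shPIP4K2B cells did (adjusted p = 0.0133). The DUSP2 fall in shPIP4K2B cells passed it there too (adjusted p = 0.0393). Relative to the median of all genes DUSP1 and DUSP2 both stayed higher after UV in each line, while the other 6 expressed members stayed lower. A change of scaling shifts all genes nearly alike, so it could not test this relative order. On the TPM scale, too, DUSP1 was lower after UV in shPIP4K2B cells, at 17.8 and 18.2 TPM, against 20.5 and 22.8 TPM untreated, and in shPIP4K2A/2B cells, at 17.7 and 18.4 TPM, against 22.6 and 21.0 TPM untreated. DUSP2 was lower after UV on that scale in shPIP4K2B cells, at 2.89 and 2.47 TPM, against 3.03 and 3.17 TPM untreated, and overlapped in shPIP4K2A cells, at 4.14 and 3.90 TPM, against 3.52 and 4.79 TPM untreated. TPM, like library totals, move with the other RNAs in a library.

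**Figure D3:**
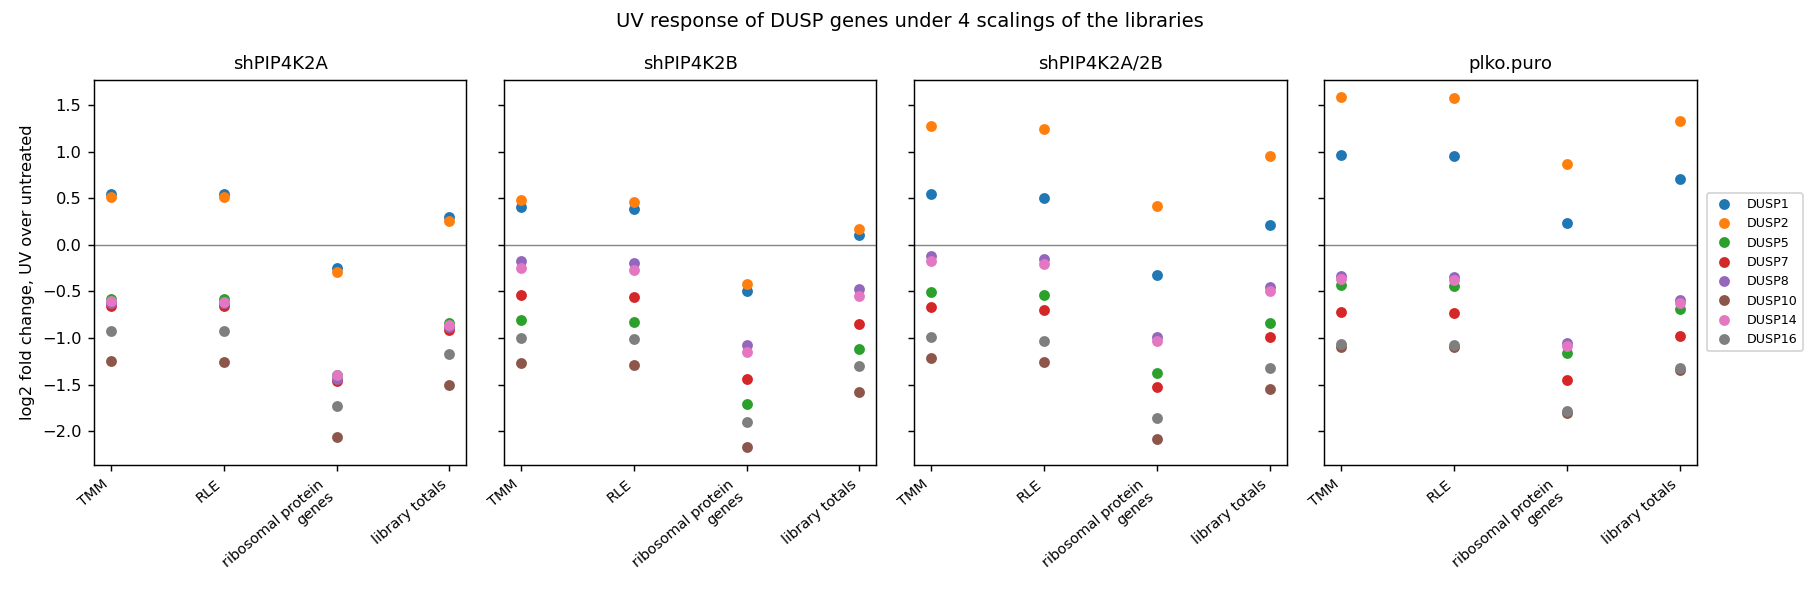
Log2 fold change 6 h after UV over untreated of the 8 expressed DUSP genes under 4 scalings of the libraries, 1 panel per line. The order of the genes stays nearly the same while all points shift together, and with ribosomal protein gene scaling DUSP1 lies below 0 in the 3 knockdown lines and DUSP2 in the 2 single ones.

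Some members stood higher in untreated knockdown lines than in plko.puro cells. DUSP1 was higher in each knockdown line, with 46.9 and 44.7 normalised CPM in shPIP4K2A cells, 56.3 and 54.0 in shPIP4K2B cells and 48.9 and 48.3 in shPIP4K2A/2B cells, against 29.1 in the single plko.puro library. All 6 knockdown libraries lay above that library. The log2 fold changes were 0.66 ± 0.12, 0.92 ± 0.12 and 0.74 ± 0.12 (adjusted p = 0.00501, 0.000332 and 0.00256), and DUSP1 stayed called in each under all 4 scalings. It was also the only member called in all 3 lines. These 3 comparisons share the plko.puro library, so they are not independent of each other.

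DUSP16 stood above plko.puro in each untreated knockdown line as well, at 61.9 and 63.2, 59.1 and 60.2, and 67.7 and 66.5 normalised CPM in the same order, against 49.0. It rose by 0.35 ± 0.10 in shPIP4K2A cells and by 0.45 ± 0.10 in shPIP4K2A/2B cells (adjusted p = 0.0437 and 0.0143), and its change of 0.28 ± 0.10 in shPIP4K2B cells did not pass the test (adjusted p = 0.0889). The shPIP4K2A call was lost in 11 of 14 fits that left out a library, at log2 fold changes of 0.35 to 0.38, and the shPIP4K2A/2B call without either untreated library of that line, at 0.45 and 0.47. DUSP10 rose in shPIP4K2A cells, to 23.9 and 22.5 against 14.4 in plko.puro cells (log2 fold change 0.68 ± 0.17, adjusted p = 0.0213), and this call was lost without shPIP4K2A untreated replicate 1, at 0.64. DUSP5 rose in shPIP4K2B cells, to 13.1 and 14.2 against 9.37 (0.54 ± 0.16, adjusted p = 0.0468), a call lost in 9 of 14 such fits, at 0.51 to 0.60.

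In counts, 3 members rose and 0 fell in untreated shPIP4K2A cells, against 3.83% and 4.23% of all genes. In shPIP4K2B cells 2 rose and 0 fell, against 5.28% and 5.07%, and in shPIP4K2A/2B cells 2 rose and 0 fell, against 3.26% and 3.03%. The median log2 fold change of the members, the scarce DUSP4 and DUSP6 included, was 0.30, 0.31 and 0.39, against 0.01, 0.00 and -0.01 for all genes. With 1 plko.puro library as the base, each of these values moves with that library. Of 8 epithelial markers tested, 2 rose and 1 fell in untreated shPIP4K2A cells, 1 rose and 1 fell in shPIP4K2B cells and 2 rose and 1 fell in shPIP4K2A/2B cells. KRT8 rose in all 3, by 1.28 ± 0.28, 1.13 ± 0.28 and 1.35 ± 0.28, and CLDN4 fell in all 3 (-0.81 ± 0.17, -0.79 ± 0.17 and -0.60 ± 0.17). Of 8 osteoblast and mesenchymal markers 0 rose and 1, 2 and 1 fell in the same order: SPARC in shPIP4K2A and shPIP4K2A/2B cells (-0.91 ± 0.10 and -0.46 ± 0.11), and COL1A1 and RUNX2 in shPIP4K2B cells (-1.23 ± 0.15 and -0.95 ± 0.10). Their part in the DUSP values was not tested.

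After UV the knockdown lines were compared with 2 plko.puro libraries. DUSP16 was higher in all 3, with 32.3 and 33.7 normalised CPM in shPIP4K2A, 30.6 and 29.2 in shPIP4K2B and 33.7 and 33.8 in shPIP4K2A/2B cells, against 23.7 and 23.1 in plko.puro cells. The groups did not overlap, and the log2 fold changes were 0.50 ± 0.08, 0.35 ± 0.08 and 0.53 ± 0.08 (adjusted p = 0.000821, 0.00819 and 0.000663). The shPIP4K2B call was lost without either plko.puro library after UV or without shPIP4K2B replicate 1, at 0.31 to 0.38. The shPIP4K2A call of DUSP16 was lost in a fit of the groups compared alone. DUSP1 rose in shPIP4K2B and shPIP4K2A/2B cells by 0.37 ± 0.10 and 0.32 ± 0.10 (adjusted p = 0.015 and 0.0377), and its change of 0.24 ± 0.10 in shPIP4K2A cells did not pass (adjusted p = 0.0943). The shPIP4K2B call was lost without any 1 of the 4 libraries compared, at 0.37 to 0.38, and the shPIP4K2A/2B call in 10 of 15 fits that left out a library, at 0.29 to 0.35.

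DUSP2 was the one member that fell in knockdown cells after UV. It had 10.3 and 9.97 normalised CPM in shPIP4K2A cells and 9.49 and 7.73 in shPIP4K2B cells, against 14.9 and 14.5 in plko.puro cells, without overlap. The log2 fold changes were -0.54 ± 0.18 and -0.77 ± 0.18 (adjusted p = 0.0452 and 0.00813). In shPIP4K2A/2B cells it had 13.4 and 13.7, a log2 fold change of -0.12 ± 0.18 that did not pass (adjusted p = 0.722). The shPIP4K2A call was lost in 6 of 15 fits that left out a library, at -0.56 to -0.52, and the shPIP4K2B call without plko.puro replicate 1 or shPIP4K2B replicate 2, at -0.74 and -0.62. A fit of the groups compared alone also lost the shPIP4K2A call.

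Other members differed from plko.puro after UV in 1 line each. DUSP10 rose in shPIP4K2A cells (0.52 ± 0.14, adjusted p = 0.0174), a call lost without plko.puro replicate 2, at 0.35, and in a fit of the groups compared alone. DUSP7 rose in shPIP4K2B cells (0.43 ± 0.11, adjusted p = 0.0111), a call lost without plko.puro replicate 1 or shPIP4K2B replicate 1, at 0.35 and 0.37. In shPIP4K2A/2B cells the small phosphatase DUSP14 had 55.4 and 54.7 normalised CPM and DUSP8 20.6 and 23.0, against 36.6 and 34.7 and against 14.8 and 13.5 in plko.puro cells. Both groups were clear of plko.puro, at 0.63 ± 0.12 for DUSP14 and 0.62 ± 0.13 for DUSP8 (adjusted p = 0.00248 and 0.00433), and the DUSP8 call was lost without plko.puro replicate 2 or shPIP4K2A/2B replicate 2, at 0.56 and 0.55. Of the 10 members 2 rose and 1 fell in shPIP4K2A cells after UV, against 11.3% and 9.06% of all genes. In shPIP4K2B cells 3 rose and 1 fell, against 10.7% and 8.44%, and in shPIP4K2A/2B cells 4 rose and 0 fell, against 8.57% and 6.96%. The members' median log2 fold change, the scarce DUSP4 and DUSP6 included, was 0.25, 0.34 and 0.28, against 0.01, 0.00 and 0.00 for all genes.

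**Figure D4:**
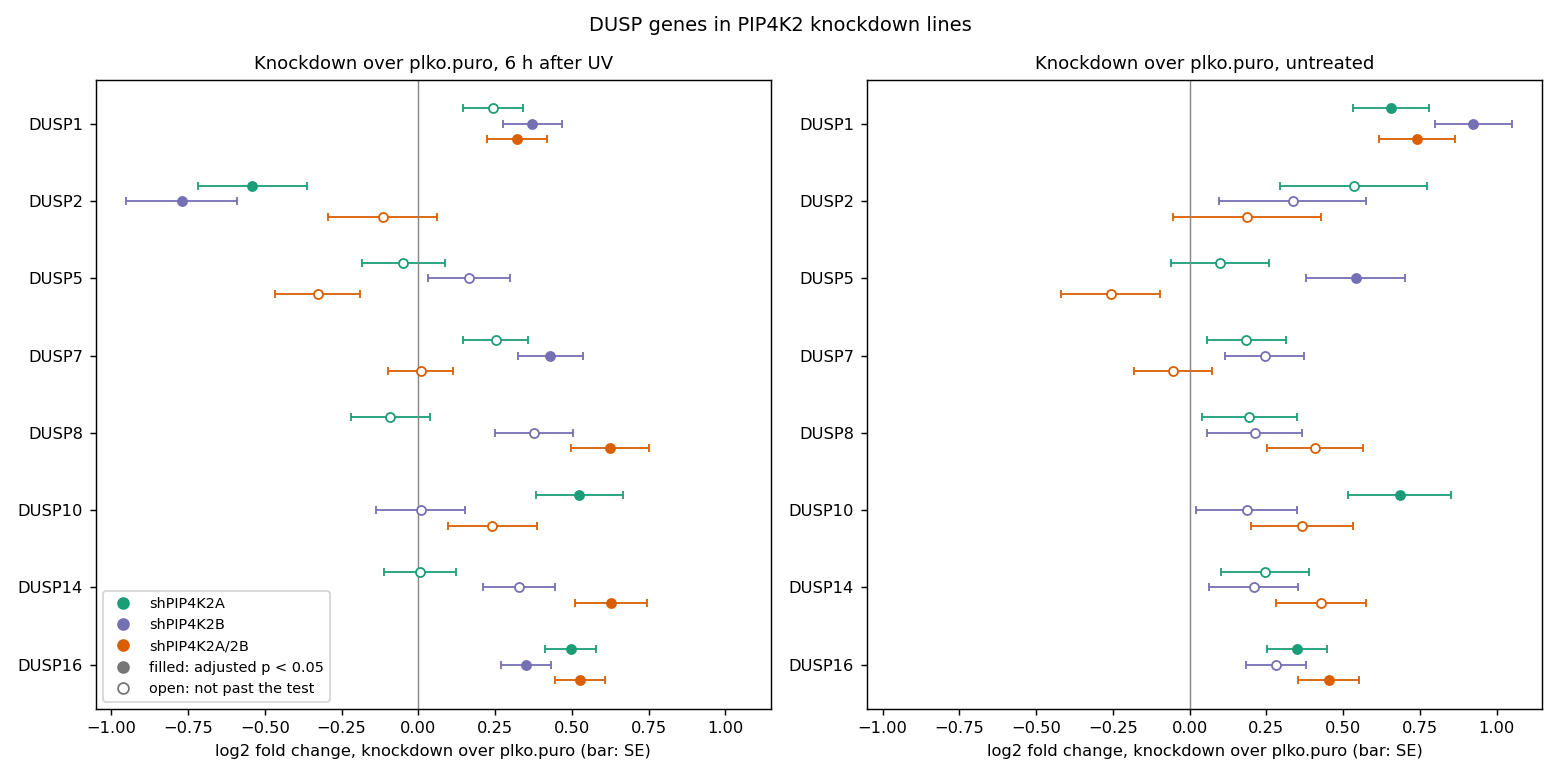
Log2 fold change of each knockdown line over plko.puro for the 8 expressed DUSP genes, 6 h after UV on the left and untreated on the right, with bars for the SE and filled points for adjusted p under 0.05. DUSP1 and DUSP16 lie right of 0 in all 6 comparisons, and DUSP2 lies left of 0 only after UV.

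Whether knockdown changed the UV response itself was tested as the difference of the 2 responses. No member passed that test in edgeR, where 0.00885%, 0.0177% and 0.0133% of all genes did for shPIP4K2A, shPIP4K2B and shPIP4K2A/2B. At an unadjusted p under 0.05 there were 2, 2 and 1 members, a threshold at which the share of all genes was not computed. The DUSP2 response differed from that in plko.puro cells by -1.07 ± 0.30 on the log2 scale in shPIP4K2A cells, by -1.11 ± 0.30 in shPIP4K2B cells and by -0.30 ± 0.30 in shPIP4K2A/2B cells (adjusted p = 0.916, 0.649 and 0.926). The DUSP1 response differed by -0.41 ± 0.16, -0.55 ± 0.16 and -0.42 ± 0.16 (adjusted p = 0.916, 0.68 and 0.915). For DUSP16, with the smallest error, the differences were 0.14 ± 0.13, 0.07 ± 0.13 and 0.07 ± 0.13. All of them rest on the single untreated plko.puro library. Without a filter on low counts the DUSP2 difference was called in shPIP4K2A and shPIP4K2B cells, at -1.08 and -1.11. Fitted to the 4 groups compared alone, DUSP1 and DUSP2 were called in shPIP4K2B cells, at -0.55 and -1.10. Without shPIP4K2A replicate 2 after UV, DUSP1, DUSP2 and DUSP14 were called in shPIP4K2A cells, at -0.57, -1.05 and -0.49.

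The double knockdown was also set against each single one. In untreated cells no member differed from shPIP4K2A cells in edgeR, where 3.58% of all genes were called higher and 3.62% lower at adjusted p under 0.05. At an unadjusted p under 0.05 there were 3 members, a threshold at which the share of all genes was not computed. Against untreated shPIP4K2B cells 0 members rose and 1 fell, beside 7.43% and 8.18% of all genes. That member was DUSP5, with 8.57 and 7.09 normalised CPM in shPIP4K2A/2B cells, against 13.1 and 14.2 in shPIP4K2B cells (log2 fold change -0.80 ± 0.13, adjusted p = 0.000751). After UV 2 members rose and 0 fell against shPIP4K2A cells, beside 9.81% and 9.74% of all genes. These were DUSP8 (0.72 ± 0.13, adjusted p = 0.00159) and DUSP14 (0.62 ± 0.12, adjusted p = 0.00237), for which shPIP4K2A/2B libraries after UV lay above both shPIP4K2A libraries. Both calls were lost in a fit of the groups compared alone.

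Against shPIP4K2B cells after UV 1 member rose and 2 fell in shPIP4K2A/2B cells, beside 8.7% and 9.15% of all genes. DUSP2 was higher by 0.65 ± 0.18, DUSP5 lower (-0.49 ± 0.14) and DUSP7 lower (-0.42 ± 0.11), with adjusted p of 0.0217, 0.0228 and 0.0124. Each of these calls was lost without shPIP4K2A/2B replicate 1, at 0.67, -0.37 and -0.36. Those of DUSP5 and DUSP7 were also lost without shPIP4K2B replicate 1 (-0.47 and -0.36), that of DUSP5 without shPIP4K2B replicate 2 (-0.52), and that of DUSP2 without shPIP4K2B replicate 2 (0.51) or shPIP4K2A/2B replicate 2 (0.64).

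The members also differ in genomic span, and the order of span ran against the order of UV responses. DUSP2 and DUSP1, the genes that stood higher after UV, span 2.275 and 3.106 kb, whereas DUSP10 and DUSP16 span 40.753 and 88.174 kb. Between them lie DUSP7 (7.632 kb), DUSP5 (13.707 kb), DUSP8 (17.877 kb) and DUSP14 (23.671 kb). Over these 8 genes Spearman's rho between span and log2 fold change was -0.79, -0.79, -0.76 and -0.76 in shPIP4K2A, shPIP4K2B, shPIP4K2A/2B and plko.puro cells, a description across genes that share libraries and are not replicates. Protein-coding genes of up to 5 kb had a median log2 fold change after UV of 0.33, 0.52, 0.51 and 0.36 in these lines, and those over 60 kb of 0.04, -0.05, 0.00 and 0.01. DUSP16 in each line lay below the lower quartile of genes over 60 kb (-0.23, -0.33, -0.32 and -0.28), and DUSP10 below that of genes of 20 to 60 kb. DUSP1 lay within the quartiles of genes of up to 5 kb in the 3 knockdown lines and above the upper one, 0.62, in plko.puro cells. DUSP2 lay within them in the 2 single knockdowns and above the upper one in shPIP4K2A/2B (0.79) and plko.puro cells. The part of gene length in these responses was not tested.

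**Figure D5:**
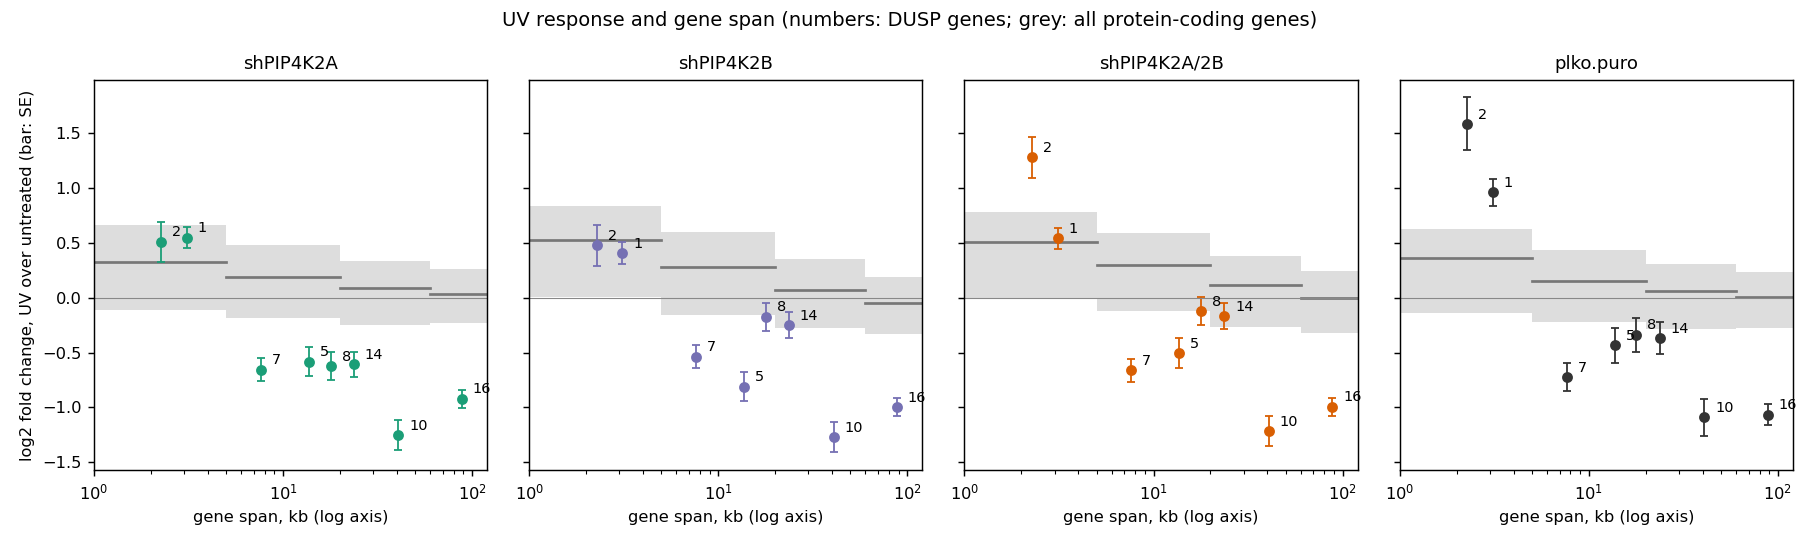
Log2 fold change 6 h after UV over untreated against the genomic span of each expressed DUSP gene in kb on a log axis, 1 panel per line, with bars for the SE, and the median (line) and quartiles (grey) of all protein-coding genes by span. DUSP2 and DUSP1, the shortest genes, lie highest in each panel and DUSP10 and DUSP16, the longest, lowest; the whole set shifts down with ribosomal protein gene scaling, which puts DUSP1 below 0 in the 3 knockdown lines and DUSP2 in the 2 single ones.

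The files also give, per gene and library, a transcript length weighted by the estimated abundance of isoforms. For DUSP8 it was 1260 and 1459 bases in shPIP4K2A cells after UV, against 1934 and 2466 untreated, and 1861 and 1764 in shPIP4K2B cells after UV, against 2142 and 2057 untreated. It was 2005 and 1924 in shPIP4K2A/2B cells after UV, against 2355 and 2376 untreated, and 1941 and 1602 in plko.puro cells after UV, against 2409 untreated. DUSP8 was thus shorter after UV in each line without overlap, as were 5.52% of the 12435 genes with enough counts for this comparison. DUSP7 was longer after UV in each line without overlap, as were 5.17% of those genes, but by a few bases in 3350. Of the 8 members with enough counts, the other 6 met neither condition. Isoforms themselves were not analysed here.

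Patterns over the 15 libraries were compared by the root mean square difference of mean-centred log2 CPM, for which a smaller value is more alike. Among the members DUSP8 and DUSP14 were closest, at 0.16, then DUSP5 and DUSP7, at 0.18, and DUSP10 and DUSP16, at 0.22. DUSP1 and DUSP2 were further apart, at 0.44. Among 10857 other protein-coding genes the most like DUSP1 were DPH6 and ELOC (0.11 each), and the most like DUSP16 NRBF2 (0.08) and PLCXD2 (0.09). DUSP10 was nearest to FRS2 and REL (0.17 each), DUSP7 to CDCA8 (0.08) and RREB1 (0.09), and DUSP2, with the loosest match, to ADPRHL1 (0.23) and RTL5 (0.25). DUSP5 was nearest to GNL3 and PRR3 (0.14 each), DUSP8 to CCM2 (0.10) and TUSC2 (0.14), and DUSP14 to HECA (0.11) and ENC1 (0.12). Over all these genes the median difference from a member ranged from 0.39 for DUSP1 to 0.76 for DUSP10.

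Around the DUSPs, the rest of the MAP kinase pathway was read from gene lists by role in the same fits. After UV in plko.puro cells 8.86% of all genes rose and 9.97% fell, the shares beside which each list count for that comparison stands. No list was tested as a set. Of 7 MAP kinase kinases 0 rose and 1 fell after UV in plko.puro cells, MAP2K7, which activates JNK (-0.60 ± 0.13, adjusted p = 0.00547). Of 23 MAP kinase kinase kinases 2 rose and 6 fell: MAP3K20, the ribotoxic stress sensor, rose by 0.51 ± 0.16 and MAP3K13 by 0.49 ± 0.15, and MAP3K8 and MAP3K1, upstream of ERK and of JNK, had the largest falls, at -1.84 ± 0.31 and -1.14 ± 0.14. Of 11 kinases activated by MAP kinases 2 rose and 0 fell, and of 8 scaffolds 1 rose and 2 fell. With scaling to ribosomal protein genes the median of all genes moved to -0.695 in this comparison, further than the size of any rise named here.

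Ligands of the EGF receptor, which act upstream of ERK, included larger changes. Of 6 tested 2 rose and 0 fell after UV in plko.puro cells: HBEGF had 44.6 ± 0.178 normalised CPM after UV (SD), against 14.3 untreated, a log2 fold change of 1.64 ± 0.12 (adjusted p = 1.18e-06), and AREG 3.04 ± 0.395, against 0.506, a change of 2.57 ± 0.37. Untreated, 3, 3 and 2 of the 6 ligands rose in shPIP4K2A, shPIP4K2B and shPIP4K2A/2B cells and 0 fell. The shares of all genes for these comparisons are given below. AREG rose in each line, by 2.71 ± 0.37, 2.95 ± 0.36 and 2.92 ± 0.36 on the log2 scale. EREG rose in the 2 single knockdowns (2.29 ± 0.48 and 2.08 ± 0.48) and HBEGF in the double one (0.85 ± 0.12). All of these rest on the single untreated plko.puro library, where AREG was scarce. Of 7 Sprouty and SPRED feedback inhibitors of ERK 0 rose and 1 fell after UV in plko.puro cells, beside 8.86% and 9.97% of all genes. The fall was SPRED2 (-0.53 ± 0.10, adjusted p = 0.00233). Untreated, 3.83% and 4.23% of all genes rose and fell with shPIP4K2A, 5.28% and 5.07% with shPIP4K2B, and 3.26% and 3.03% with shPIP4K2A/2B. Of the inhibitors 1 rose and 1 fell, 1 rose and 0 fell, and 1 rose and 0 fell in these lines. The rise was SPRED1 in each line (0.97 ± 0.17, 1.23 ± 0.17 and 0.66 ± 0.17), and the fall was SPRY4 (-2.29 ± 0.55, adjusted p = 0.0193). SPRY4 was scarce, at 0.354 normalised CPM in shPIP4K2A cells, against 1.74 in the single untreated plko.puro library.

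Of 10 ERK output genes 0 rose and 1 fell after UV in plko.puro cells, beside 8.86% and 9.97% of all genes. The fall was the receptor gene EPHA4 (-1.21 ± 0.17). In untreated cells 2 rose and 0 fell with shPIP4K2A, 2 rose and 0 fell with shPIP4K2B and 0 rose and 1 fell with shPIP4K2A/2B, where 3.83% and 4.23%, 5.28% and 5.07%, and 3.26% and 3.03% of all genes rose and fell. ETV5 and EPHA2 rose in the 2 single knockdowns, ETV5 by 0.76 ± 0.11 and 0.82 ± 0.11 and EPHA2 by 0.68 ± 0.14 and 1.02 ± 0.14, and MYC fell in the double one (-0.63 ± 0.14). Of 16 other phosphatases with MAP kinase or dual-specificity activity 1 rose and 1 fell after UV in plko.puro cells, STYXL1 (0.50 ± 0.15) and PPM1D, a phosphatase of p38 and of p53 (-0.51 ± 0.10). PTPN7, a tyrosine phosphatase of MAP kinases, fell in untreated shPIP4K2A/2B cells, to 0.30 ± 0.0111 normalised CPM (SD), against 2.37 in plko.puro cells (-2.97 ± 0.28, adjusted p = 2.98e-05). Of 8 AU-rich element binding proteins, which control the decay of many short-lived mRNAs, 1 rose and 1 fell after UV in plko.puro cells, ZFP36L1 (0.59 ± 0.17) and ZFP36L2 (-0.62 ± 0.12).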

How the data were processed

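RNA was measured by ribosomal RNA-depleted, directional RNA-seq, per the labels' protocols, in 16 libraries. Tools named in the submitters' processing notes are STAR, SAMtools and RSEM, with the build GRCh38. Their versions, the annotation release and the strand setting of the counting were not stated there, so reads of overlapping antisense genes cannot be assigned with certainty. The authors deposited 1 RSEM gene table per library, from which 3 values were used. Per the file headers these are the expected count, an estimated read number with no normalization, the TPM, scaled by the authors per effective length and to a constant sum, and an isoform-weighted transcript length. The depth of the 15 libraries used was 28.0 to 39.9 M expected counts.

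Members were matched by symbol to GENCODE 29, which holds 58420 of the 60666 gene IDs. The members, gene lists and tests were chosen with earlier results of these data known. Expected counts were rounded, filtered with filterByExpr (minimum count 10, which 1 library could satisfy), scaled by TMM and tested with edgeR 4.0.16 (quasi-likelihood, robust) in R 4.3.3, in 1 fit of 15 libraries for 17 comparisons, with Benjamini-Hochberg adjustment over 22597 genes. The SE was taken as the absolute log2 fold change over the root of F. Code was tested on simulated data.

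Named genes were the 10 members, the 2 most alike protein-coding genes per member (at least 5 CPM on average, prior count 2), and up to 2 rises and 2 falls of largest size per pathway list and comparison. Alternatives were DESeq2 1.42.0, RLE size factors, library totals, ribosomal protein gene scaling, other filters, fits of the groups compared alone, a replicate term, all 16 libraries and each library left out. Lengths were compared for genes with a mean count of at least 100 and at least 50 in each library. Tables were handled with Python 3.11.15 and pandas 2.3.3. The count over the MAP kinase list is not reported here.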

Additional observations from a re-analysis of the deposited data

Results flagged for a closer look

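DUSP6 and DUSP4, which were close to 0 in the 15 libraries compared, were detected in the library labelled plko.puro untreated replicate 1, which was used only in the alternative fit of all 16 libraries. DUSP6 had 77 counts there, or 60.2 CPM (exact Poisson 95% interval 47.5 to 75.3), against 0.0834 to 0.564 CPM in the other 15 libraries. DUSP4 had 31 counts, or 24.3 CPM (16.5 to 34.4), against 0 to 0.321 CPM. In the same library DUSP2 had 1 count, or 0.782 CPM, against 5.39 to 14 CPM in the others, and DUSP14 had 13.3 CPM, against 28.5 to 69.8 CPM. DUSP1 (21.1 CPM) and DUSP7 (24.3 CPM) lay below the others, which had 32.1 to 70.6 and 33.5 to 87.4 CPM. DUSP5 (21.9 CPM) lay above the others, which had 4.49 to 15.4 CPM. The intervals of DUSP7 (16.5 to 34.4) and DUSP5 (14.6 to 31.7) reached into those ranges. DUSP16 at 51.6 CPM, DUSP8 at 15.6 CPM and DUSP10 at 7.82 CPM lay within the range of the others. The intervals cover counting error only.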

How the results depend on the processing

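Of 48 member values past the test, 45 stayed past it in the same direction with DESeq2, 47 with RLE size factors, 47 with a filter of CPM above 1 in 2 libraries, 46 with no filter, 41 with library totals (chosen after seeing the data), 37 in fits of the groups compared alone, 36 with ribosomal protein gene scaling and 2 with all 16 libraries. Under ribosomal protein gene scaling 4 of the 48 values reversed in the UV response: DUSP1 to -0.25, -0.492 and -0.325 in shPIP4K2A, shPIP4K2B and shPIP4K2A/2B cells and DUSP2 to -0.286 in shPIP4K2A cells. DUSP2 in shPIP4K2B cells, not among the 48, also reversed, to -0.425, and was called on that scale (adjusted p = 0.0393). The counts of members called that moved by over 1.5 times were as follows. For the UV response, library totals gave 8 in plko.puro cells, the groups alone 8 in plko.puro, 3 in shPIP4K2A and 8 in shPIP4K2B cells, and ribosomal protein gene scaling 9 in shPIP4K2B cells. For knockdown against plko.puro untreated, ribosomal protein gene scaling gave 6 in shPIP4K2A cells, the groups alone 4 in shPIP4K2A/2B cells, and library totals, no filter and DESeq2 1 each in shPIP4K2B cells. After UV the groups alone gave 0 in shPIP4K2A cells, and ribosomal protein gene scaling 2 in shPIP4K2B cells. For the difference of responses, no filter gave 1 in shPIP4K2A and 1 in shPIP4K2B cells, and the groups alone 2 in shPIP4K2B cells. For the double knockdown the groups alone gave 3 against shPIP4K2B untreated, 0 against shPIP4K2A after UV and 6 against shPIP4K2B after UV. With all 16 libraries, all comparisons other than the UV response of plko.puro gave 0 calls among the members in edgeR. Fits of the groups alone hold fewer libraries; the cause of the other moves was not tested.

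Replicate numbers were not used as pairs in the main fit. Over 21 pairs of groups the correlation of same-numbered deviations ran from -0.41 to 0.603, with a median of -0.0025. It was over 0.1 in 5 pairs and under -0.1 in 6. Whether libraries of some groups were handled together was not tested. With the number as a replicate block 44 of the 48 values stayed past the test, and 1 member was called in untreated shPIP4K2B cells.

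With each library left out in turn, the members called ranged from 5 to 7 in plko.puro, 7 to 8 in shPIP4K2A, 4 to 7 in shPIP4K2B and 5 to 6 in shPIP4K2A/2B cells for the UV response. Against plko.puro they ranged from 1 to 4, 1 to 3 and 1 to 4 untreated and from 1 to 4, 0 to 7 and 2 to 4 after UV, in shPIP4K2A, shPIP4K2B and shPIP4K2A/2B cells. For the differences of responses they ranged from 0 to 3, 0 to 0 and 0 to 0. The double knockdown gave 0 to 0 against shPIP4K2A and 1 to 3 against shPIP4K2B untreated, and 2 to 4 and 0 to 4 after UV. Comparisons that need untreated plko.puro cells have no value without their 1 library. DUSP4 and DUSP6 are limited by depth.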
